A study of Mus musculus with 10 samples.

Results

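Neuropeptide genes and somatostatin receptor genes were followed across 10 RNA-seq libraries of mouse retinal ganglion cells, the neurons that send visual signals to the brain. The set held 6 neuropeptide precursor genes (Npy, Tac1, Adcyap1, Nmb, Penk and Sst; Cartpt was not in the set) and 4 genes for somatostatin receptors (Sstr1, Sstr2, Sstr3 and Sstr4). They were picked by symbol from the 23258 symbols of the deposited table, and all 10 were found there. They were chosen with earlier results of the genotype comparison known, in which Npy and Sstr4 had been described, so their differences between genotypes are given as a description and not as an independent test. Both groups were C57BL/6 mice at postnatal day 6 that carried Hb9-GFP, a green fluorescent reporter driven by Hb9 (Mnx1) that marks ON-OFF direction-selective ganglion cells. The wild-type group (WT Hb9) had 5 libraries and the knockout group (Satb1-/- Hb9) had 5. Each came from about 1000 GFP-labelled cells sorted from retinae, with replicates taken from different litters. The labels do not say which part of Satb1, a chromatin organizer, is missing in the knockout, or how many animals went into a library.

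Neuropeptides are cut from longer precursor proteins inside dense-core vesicles and act mostly on G protein-coupled receptors. Somatostatin, the product of Sst, acts through receptors that couple to Gi/o proteins, which lower cyclic AMP and open inward-rectifier potassium channels. In the retina peptides are best known as co-transmitters of amacrine cells, and some ganglion cell types also carry them. PACAP, the product of Adcyap1, is known from the ganglion cells that are themselves photosensitive.

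The sequences before the transcription start are shown for Npy, the most abundant member, for Sstr4, the one whose genotypes did not overlap, and for the ligand Sst with its receptor Sstr2, which were close to 0. They are from RefSeq on GRCm38.p6, whose table held 8 of the 10 genes, and each gives the 250 bases before the annotated start. Capitals mark TGACG and its reverse complement CGTCA, the core of the cyclic AMP response element, for which the Sst promoter is a textbook example. The whole element, TGACGTCA, holds both overlapping cores.

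Npy (chr6:49822460-49822709, plus strand): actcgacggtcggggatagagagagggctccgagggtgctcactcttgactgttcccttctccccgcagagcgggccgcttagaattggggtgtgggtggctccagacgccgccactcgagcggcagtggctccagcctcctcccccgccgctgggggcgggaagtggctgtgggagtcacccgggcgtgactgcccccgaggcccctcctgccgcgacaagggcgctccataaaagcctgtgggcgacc

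Sstr4 (chr2:148395127-148395376, plus strand): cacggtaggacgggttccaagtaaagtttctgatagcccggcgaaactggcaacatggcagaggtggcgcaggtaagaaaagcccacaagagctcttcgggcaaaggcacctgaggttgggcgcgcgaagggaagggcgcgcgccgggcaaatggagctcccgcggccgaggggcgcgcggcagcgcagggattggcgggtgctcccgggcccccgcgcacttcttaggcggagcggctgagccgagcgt

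Sst (chr16:23890845-23891094, minus strand): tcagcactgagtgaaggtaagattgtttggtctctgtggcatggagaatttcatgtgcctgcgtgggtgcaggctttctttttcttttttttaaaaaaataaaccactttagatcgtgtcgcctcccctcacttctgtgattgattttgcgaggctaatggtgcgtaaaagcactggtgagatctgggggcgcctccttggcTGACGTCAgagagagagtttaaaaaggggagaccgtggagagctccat

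Sstr2 (chr11:113619077-113619326, plus strand): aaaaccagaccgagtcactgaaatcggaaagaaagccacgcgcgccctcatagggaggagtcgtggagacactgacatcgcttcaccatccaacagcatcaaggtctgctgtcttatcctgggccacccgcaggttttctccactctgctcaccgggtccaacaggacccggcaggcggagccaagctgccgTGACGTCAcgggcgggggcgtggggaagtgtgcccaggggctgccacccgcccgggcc

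Both strands were searched. The whole element TGACGTCA was in the windows of Sst and Sstr2, and 1.55% of the 32851 RefSeq windows of this length held it. The core TGACG alone, which 17.8% of windows held, was also present in the windows of Tac1 and Adcyap1 and in 1 of the 2 windows of Sstr3. It was in neither the Npy nor the Sstr4 window, nor in that of Nmb. Bases G and C made up 69.2% of the Npy window and 67.2% of the Sstr4 window, against 63.6% for Sstr2, 47.2% for Sst and a median of 52.4% over all windows.

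The libraries expressed ganglion cell markers throughout: 12 of 14 listed markers were above 0 in every library, with Rbpms at 374 to 2978 TPM (a transcript level scaled for transcript length and library total) and Slc17a6 at 55.2 to 726 TPM. Of the markers of direction-selective ganglion cells, the type the reporter labels, 8 of 8 were lower in knockout with 0 called (median log2 difference -1.74). Of all genes tested, 67.4% were lower too. The summed level of these markers did not overlap, at 722 to 1589 TPM among wild-type libraries and 144 to 481 TPM among knockout libraries. That gap rests on Cartpt, which the list holds along with Satb1. Cartpt gave 501 of the 722 TPM of wild-type 5, but 1.63 of the 481 TPM of knockout 1. With Cartpt left out, the sum of knockout 1 is above that of wild-type 5. Mnx1, the gene whose promoter drives the reporter, was at 0 to 8.04 TPM and overlapped. Satb1 itself was at 38.6 to 414 TPM among wild-type libraries and 24.1 to 170 TPM among knockout libraries, so the groups overlapped at the targeted gene. Wild-type 5, knockout 4 and knockout 5 stood apart from the other 7 libraries on the first principal component, which held 32.9% of the variance. The share of TPM in ribosomal protein genes was 11.5% to 13.0% in those 3 libraries and 3.76% to 7.92% in the others. Depth cannot be read from TPM and is unknown, and an exact 0 need not mean absence: 8 of 1100 genes whose median reached 100 TPM were also listed at 0 somewhere. Of the 100 values of the 10 genes, 37 were 0.

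Npy dominated the set. Its median over the 10 libraries was 690 TPM, followed by Tac1 at 29.7, Adcyap1 at 22.4, Nmb at 3.97, Sstr4 at 0.998, Penk at 0.774 and Sstr1 at 0.0151 TPM, while Sst, Sstr2 and Sstr3 had a median of 0. Npy was above Tac1 in 10 of 10 libraries and Adcyap1 was above Nmb in 8 of 10. Other neighbours in this order were not separated beyond their spread: Tac1 was above Adcyap1 in 6 libraries, Nmb above Sstr4 in 6 and Sstr4 above Penk in 4. The level of Npy placed it at percentile 98.9 of the 11744 genes tested, with Tac1 at percentile 69.7 and Adcyap1 at percentile 62.5.

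**Figure D1:**
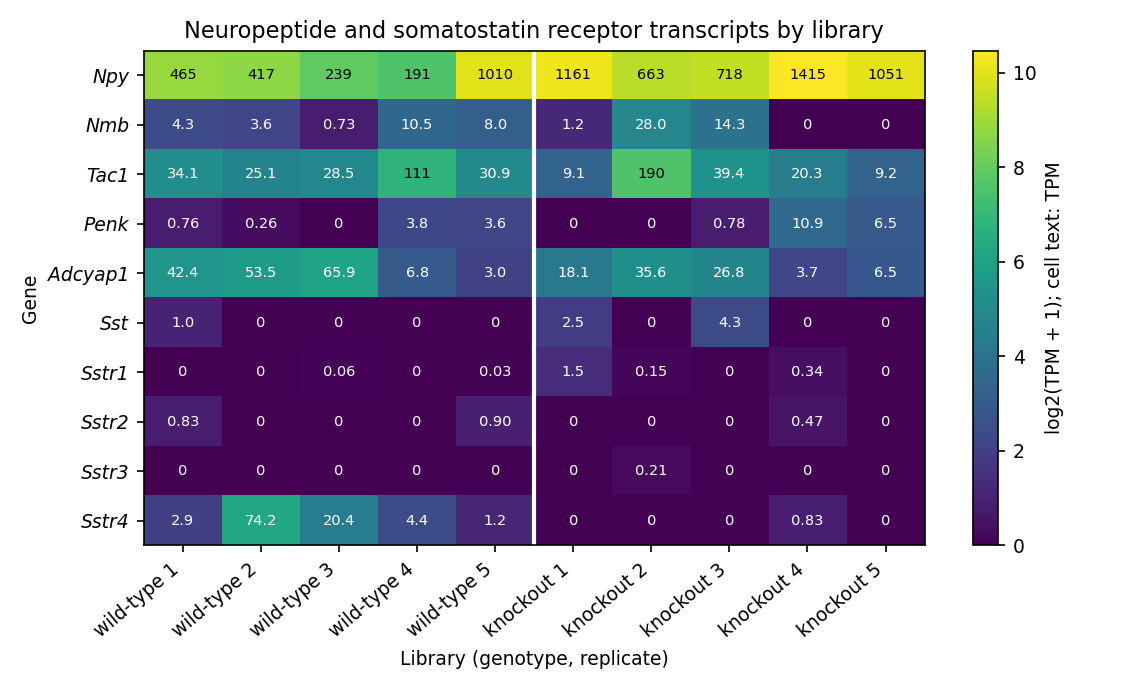
Heat map of the 10 genes (rows) in the 10 libraries (columns, wild-type left of the white line and knockout right), coloured by log2(TPM + 1) with the TPM written in each cell. Npy is at 191 to 1415 TPM everywhere, whereas Sst and Sstr1 to Sstr3 are at or near 0 in most libraries.

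Npy encodes neuropeptide Y, a peptide that acts through Gi-coupled Y receptors (chromosome 6, 49822710 to 49829507, plus strand, GRCm38). Its level was 465, 417, 239, 191 and 1011 TPM for the wild-type replicates 1 to 5 in turn, and 1161, 663, 718, 1415 and 1051 TPM for the knockout replicates 1 to 5. Wild-type 1 to 4 were all below every knockout library, and wild-type 5 was above knockout 2 and 3, so the groups overlapped through that 1 library. The wild-type mean was 464 ± 326 TPM and the knockout mean 1002 ± 314 TPM (SD, n = 5 each). The difference was 1.30 on the log2(TPM + 1) scale (SE 0.54). Ranked by level among all genes of its library, Npy stood between place 121 and place 797 in wild-type and between place 100 and place 175 in knockout. Wild-type 5 is 1 of the 3 libraries apart on the first component. In bulk samples of sorted cells, fewer cells of a type and less RNA per cell cannot be told apart. The part of the lower direction-selective marker sum of the knockout libraries in the levels of Npy and Sstr4 was not tested. Without those 3 libraries the log2 difference was 1.42 (SE 0.48), and with them as a term it was 1.10 (SE 0.41). Without wild-type 4, the lowest in Npy and apart on the second component, the difference was 1.05 (SE 0.56).

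At a Benjamini-Hochberg adjusted p under 0.05, the limma fit over the transcriptome called 0 of 11744 genes, which is 0%. The adjusted p of each member that was tested was 0.992. The median log2 difference of all genes tested was -0.31 and 67.4% of them were lower in knockout. After median centring these became 0.07 and 46.1%, and after quantile normalization -0.04 and 52.3%. The Npy difference was 1.68 (SE 0.63) and 1.27 (SE 0.51) under those scalings. Only 5 of the 10 genes reached 1 TPM in at least 5 libraries and entered this fit: Npy, Tac1, Adcyap1, Nmb and Sstr4. Sstr4 did so through wild-type alone, since it reached 1 TPM in 5 wild-type libraries and in 0 knockout libraries, so it had to differ once it was tested.

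**Figure D2:**
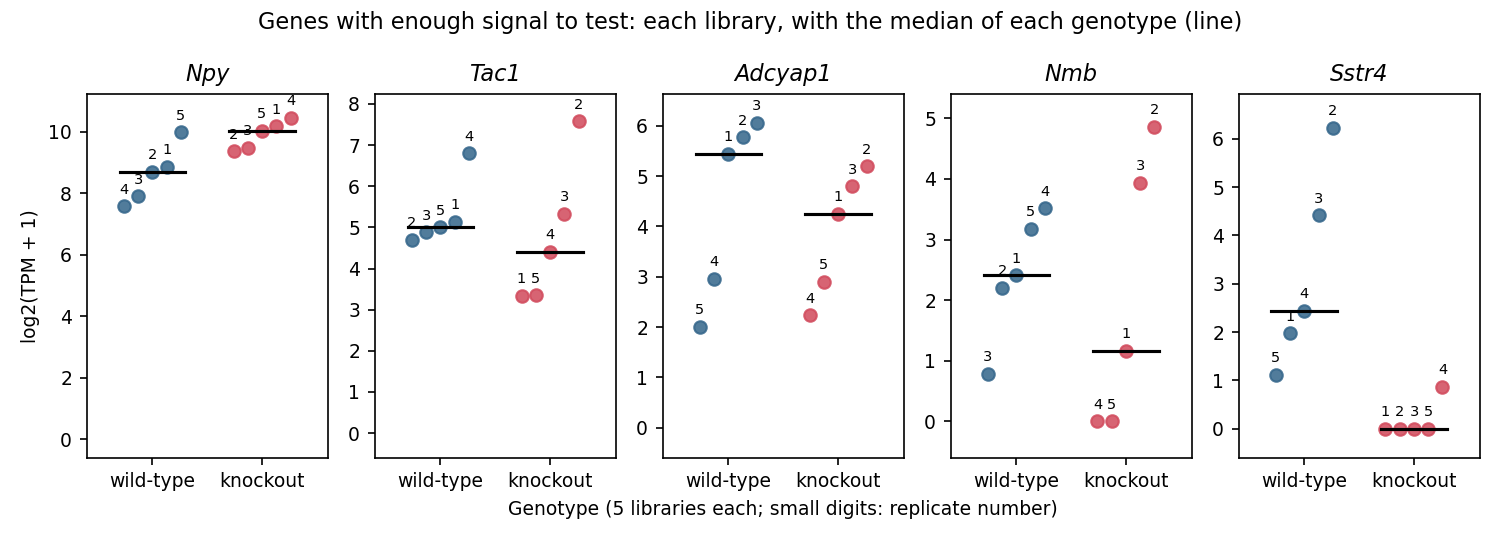
Levels of the 5 genes that entered the fit, as log2(TPM + 1) on the vertical axis by genotype, with 1 point per library, the replicate number above it and a line at the median of each genotype. Sstr4 is the 1 gene whose genotypes do not overlap, and Npy overlaps through wild-type 5.

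Npy was also set against other peptide transcripts. Of the summed TPM of 46 listed precursor genes it took 46.9%, 35.7%, 19.9%, 31.3% and 35.2% in wild-type 1 to 5, and 82.8%, 65.1%, 80.1%, 81.2% and 82.7% in knockout 1 to 5. The shares of the genotypes did not overlap, but this rests on Cartpt, a further peptide precursor in the sum. Cartpt was at 56.8 to 843 TPM among wild-type libraries and 1.63 to 47.3 TPM among knockout libraries. In wild-type 1, Npy was at 465 and Cartpt at 394 of a summed 991 TPM. In knockout 2, they were at 663 and 15.9 of 1017 TPM. With Cartpt left out, the Npy share of wild-type 1 is above that of knockout 2. Against the other 5 peptides of the set alone, Npy took 59.1% to 95.7% in wild-type and 72.4% to 97.9% in knockout, which overlapped. Cartpt was the top precursor in wild-type 2 and 3. Gal, which encodes galanin and is singled out here after its values were seen, was the top one in wild-type 5 at 1183 TPM, against 0 to 83.5 TPM in the other 9 libraries. Npy led in the other 7.

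**Figure D3:**
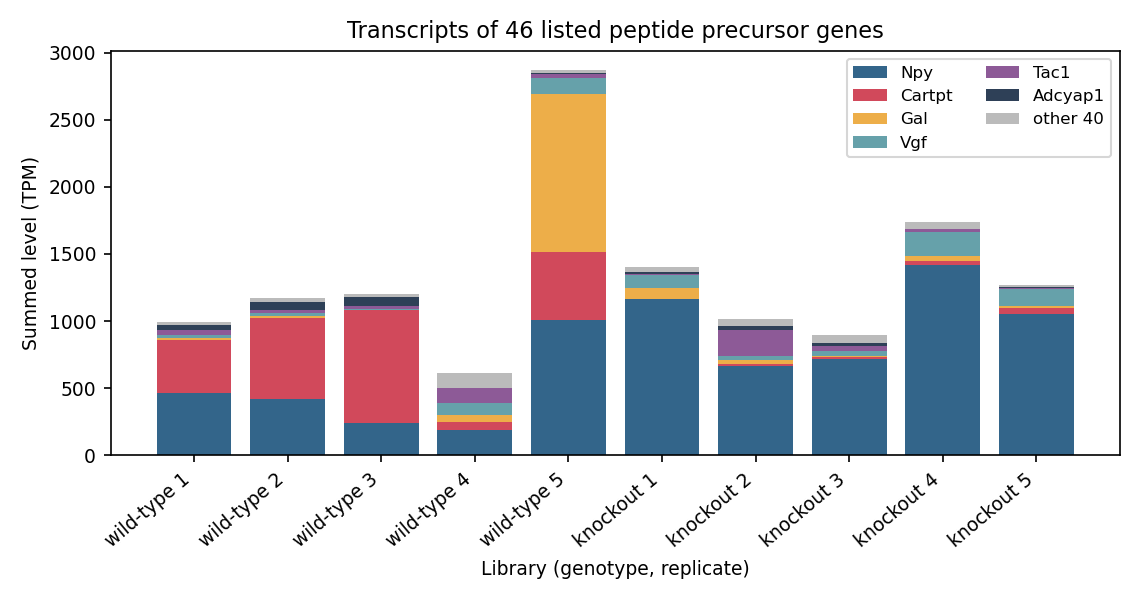
Stacked bars of the summed level (TPM, vertical axis) of 46 listed peptide precursor genes in each library (horizontal axis), with 6 genes coloured and the other 40 in grey. Npy fills 65.1% to 82.8% of each knockout bar and 19.9% to 46.9% of each wild-type bar. Cartpt takes much of the rest in wild-type 1, 2 and 3, and Gal in wild-type 5. With Cartpt left out, the Npy shares of the genotypes overlap.

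Tac1 encodes the precursor of the tachykinins substance P and neurokinin A (chromosome 6, 7554879 to 7565834, plus strand). It was at 34.1, 25.1, 28.5, 111 and 30.9 TPM for the wild-type replicates 1 to 5 in turn, and 9.10, 190, 39.4, 20.3 and 9.22 TPM for the knockout replicates 1 to 5. One library of each genotype, wild-type 4 and knockout 2, was far above the rest, and 3 of the 5 knockout libraries were below all wild-type ones. The log2 difference was -0.50 (SE 0.80), within the spread between replicates. Its sign turned with the setting: the difference was -1.20 without knockout 2 and 0.034 on leaving out wild-type 5, knockout 4 and knockout 5.

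Adcyap1 encodes PACAP (chromosome 17, 93199017 to 93206537, plus strand). Its level was 42.4, 53.5, 65.9, 6.77 and 3.01 TPM for the wild-type replicates 1 to 5 in turn, and 18.1, 35.6, 26.8, 3.70 and 6.46 TPM for the knockout replicates 1 to 5. Both genotypes split the same way, with wild-type 4 and 5 and knockout 4 and 5 at 3.01 to 6.77 TPM and the other 6 libraries at 18.1 to 65.9 TPM. Of these 4 low libraries, 3 are the ones apart on the first component; the part of that component in the Adcyap1 level was not tested. The log2 difference between genotypes was -0.57 (SE 0.89), and -0.07 (SE 0.65) with those 3 libraries as a term. Among markers of photosensitive ganglion cells, 3 of 7 were above 0 in every library and Trpc7 and Gna14 were at 0 in at least 5. Opn4, the photopigment gene that defines these cells, was at 85.1 TPM in knockout 4 and 61.6 TPM in knockout 5, where Adcyap1 was low, and at 0 to 8.02 TPM in the other 8 libraries. The summed level of the list was 148 to 555 TPM among wild-type libraries and 157 to 7100 TPM among knockout libraries, where a single gene, Rasgrp1, reached 6419 TPM in knockout 2; its part in the Adcyap1 level was not tested.

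Nmb encodes neuromedin B, a bombesin-like peptide (chromosome 7, 80902227 to 80905076, minus strand). The annotation has Sec11a overlapping it on the same strand, so reads of the pair may not be separable. Nmb was at 4.32, 3.61, 0.725, 10.5 and 8.03 TPM for the wild-type replicates 1 to 5 in turn, and 1.24, 28.0, 14.3, 0 and 0 TPM for the knockout replicates 1 to 5. The knockout libraries thus held both the highest and the lowest values. Knockout 2 was the highest library for Tac1 as well as for Nmb, and wild-type 4 was the highest wild-type library for both. The log2 difference of -0.43 (SE 0.95) was within the spread between replicates and changed sign, to 0.071, without knockout 4 or knockout 5.

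Penk, the precursor of the enkephalins (chromosome 4, 4133531 to 4138819, minus strand), was at 0.765, 0.265, 0, 3.79 and 3.56 TPM for wild-type 1 to 5. The knockout replicates 1 to 5 were at 0, 0, 0.784, 10.9 and 6.48 TPM. It reached 1 TPM in wild-type 4 and 5 and knockout 4 and 5, the same 4 libraries in which Adcyap1 was lowest. The relation between the 2 genes was seen after the values were known and was not tested. An antisense gene, A830012C17Rik, overlaps Penk, and the use of strand is not given in the sources used here.

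Amacrine cells are a known source of peptides, and the summed level of their markers overlapped between genotypes. Of 14 listed markers, 8 were above 0 in every library and 5 (Gad1, Slc32a1, Tfap2c, Ptf1a and C1ql2) were at 0 in at least 5. The summed level was 909 to 1337 TPM among wild-type libraries and 559 to 1942 TPM among knockout libraries, with the highest sum in knockout 4, where Npy was highest too. Most of it came from Calb2, at 194 to 1583 TPM, and from Pax6, which ganglion cells can also express. The glycine transporter gene Slc6a9, also on the list, is singled out here after its values were seen. It was at 2.03 to 19.2 TPM among wild-type libraries and 0 to 1.599 TPM among knockout libraries. Its log2 difference was -2.09 (SE 0.68), and it was not called. Every knockout value lay under the lowest wild-type value, as for 0.426% of the genes tested, and the gap was small. Of 7 markers of starburst amacrine cells, 4 were at 0 in at least 5 libraries, Chat among them, and the sum ran from 6.69 to 103 TPM among wild-type libraries, highest in replicate 4, and from 6.63 to 38.2 TPM among knockout libraries. Markers of Muller glia and astrocytes summed to 329 to 610 TPM among wild-type libraries and 173 to 7862 TPM among knockout libraries. The highest sum was in knockout 5 and came almost wholly from Apoe (5651 TPM) and Vim (2118 TPM). Knockout 1 to 4 summed to 173 to 1095 TPM. Of these markers, 4 of 13 were above 0 in every library, and Gfap, Aqp4, Sox9, Pax2, S100b and Kcnj10 were at 0 in at least 5. Microglia markers, of which 10 of 14 were above 0 in every library, summed to 16.8 to 2931 TPM among wild-type libraries and 122 to 3299 TPM among knockout libraries. The 3 highest microglia sums were in knockout 5, knockout 2 and wild-type 4, and the latter pair are the libraries highest in Tac1. Knockout 5, with the highest microglia sum, was among the lowest in Tac1, at 9.22 TPM. Markers of endothelial cells and pericytes summed to 5.84 to 61.7 TPM among wild-type libraries and 1.20 to 7.71 TPM among knockout libraries, with 1 of 12 above 0 in every library, Cdh5, Cldn5 and Pdgfrb among the 8 at 0 in at least 5, and the pericyte gene Rgs5 the 1 tested (log2 difference -2.86, SE 0.93; not called). Rod markers, of which 3 of 14 were above 0 in every library, summed to 15.7 to 670 TPM among wild-type libraries and 35.6 to 561 TPM among knockout libraries. The part of other cells in the levels of Npy, Tac1 and the other peptides was not tested.

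Sst, the somatostatin precursor (chromosome 16, 23889573 to 23890958, minus strand), was listed at 0 in 7 of 10 libraries. It was at 1.001 TPM in wild-type 1, at 2.54 TPM in knockout 1 and at 4.34 TPM in knockout 3. The ligand was therefore close to 0 in the sorted cells of both genotypes, whereas Sstr4 was above 0 in every wild-type library.

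Sstr4 (chromosome 2, 148395344 to 148396767, plus strand) had the highest median of the 4 somatostatin receptor transcripts over the 10 libraries and in wild-type (4.42 TPM). In knockout its median was 0 TPM, under the 0.146 TPM of Sstr1. Its wild-type levels, replicates 1 to 5, were 2.92, 74.2, 20.4, 4.42 and 1.17 TPM. In knockout it was listed at 0 in libraries 1, 2, 3 and 5 and was at 0.827 TPM in knockout 4. Every knockout value lay under the lowest wild-type value, as for 0.426% of the genes tested, and nothing is read from this because the gene was chosen from this comparison. The lowest wild-type library and the highest knockout library were close, at 1.17 and 0.827 TPM, and the wild-type values spread over a wide range, with wild-type 2 far above the rest. The fitted log2 difference was -3.06 (SE 0.83). It depends on the pseudocount because of the values at 0: it was -5.62 with 0.1 TPM added and -1.12 with 10 TPM added. Without wild-type 2, the library with the highest level, it was -2.31 (SE 0.71), and on leaving out wild-type 5, knockout 4 and knockout 5 it was -3.77 (SE 1.02).

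The other receptors were at or near 0 in most libraries of both genotypes. Sstr1 (chromosome 12, 58211772 to 58214444, plus strand) was above 0 in wild-type 3 (0.064 TPM), wild-type 5 (0.0303 TPM), and knockout 1, 2 and 4 (1.48, 0.146 and 0.344 TPM). Sstr2 (chromosome 11, 113619342 to 113626028, plus strand), which Slc39a11 overlaps on the opposite strand, was above 0 in wild-type 1 (0.833 TPM), wild-type 5 (0.897 TPM) and knockout 4 (0.473 TPM). Sstr3 (chromosome 15, 78537008 to 78544685, minus strand) was at 0.209 TPM in knockout 2 and at 0 in the other 9 libraries. Sstr5, the remaining gene of this receptor family, was listed at 0 in all 10. No library had Sst above 0 together with Sstr4 above 0 except wild-type 1.

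Peptides need enzymes and vesicles to be released, and those genes were well represented. Of 14 listed processing enzymes 12 were tested, 8 lower and 4 higher in knockout, with 0 called in either direction and a median log2 difference of -0.17 beside -0.31 for all genes tested. Cpe, the carboxypeptidase that trims peptide intermediates, was at 1352 to 3385 TPM among wild-type libraries and 1675 to 5679 TPM among knockout libraries, and the protease gene Ctsl was at 48.1 to 234 and 45.1 to 446 TPM. The convertase gene Pcsk1 was low, at 2.23 to 14.5 and 0.864 to 3.49 TPM, and Furin was at 3.38 to 55.2 and 0.713 to 22.0 TPM (log2 difference -1.42, SE 0.86). Thus the enzyme transcripts of both genotypes overlapped throughout these examples.

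Granins, the core proteins of dense-core vesicles, had 6 of 6 members tested, 4 lower and 2 higher, with 0 called and a median of -0.46. Scg2, the precursor of secretoneurin, was at 848, 468, 630, 189 and 274 TPM for the wild-type replicates 1 to 5 in turn, and 189, 151, 100, 173 and 64.0 TPM for the knockout replicates 1 to 5. Its log2 difference was -1.72 (SE 0.57), with wild-type 4 at the level of knockout 1. Scg3 was at 140 to 549 TPM among wild-type libraries and 80.4 to 467 TPM among knockout libraries, and Chgb at 55.3 to 463 and 131 to 477 TPM. Of 18 genes for vesicle release 14 were tested, 12 lower and 2 higher, with 0 called and a median of -0.31, equal to that of all genes. Rab27b, a GTPase of vesicle docking, was at 3.15 to 28.3 TPM among wild-type libraries and 1.65 to 11.1 TPM among knockout libraries (-1.38, SE 0.79), and the chaperone gene Dnajc5 at 61.1 to 337 and 47.9 to 258 TPM (-1.01, SE 0.64). Rab2a, at 170 to 611 and 251 to 442 TPM, and Rph3a, at 222 to 661 and 180 to 310 TPM, were the most abundant of that list.

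Of 40 further precursor genes 27 were above 0 in at least 1 library, and 5 reached 1 TPM in 5 libraries and were tested, 2 lower and 3 higher, with 0 called and a median of 0.01. Besides Cartpt (log2 difference -4.49, SE 0.82) these included Pomc, at 0 to 7.15 TPM among wild-type libraries and 0 to 1.40 TPM among knockout libraries (-1.30, SE 0.66), and Vgf. Vgf, a nerve growth factor-inducible peptide precursor, was at 24.9, 20.2, 4.44, 83.7 and 119 TPM for the wild-type replicates 1 to 5 in turn, and 93.7, 30.4, 32.6, 182 and 126 TPM for the knockout replicates 1 to 5 (1.25, SE 0.81). As with Npy, the highest wild-type value of Vgf was in wild-type 5 and the highest knockout value in knockout 4.

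**Figure D4:**
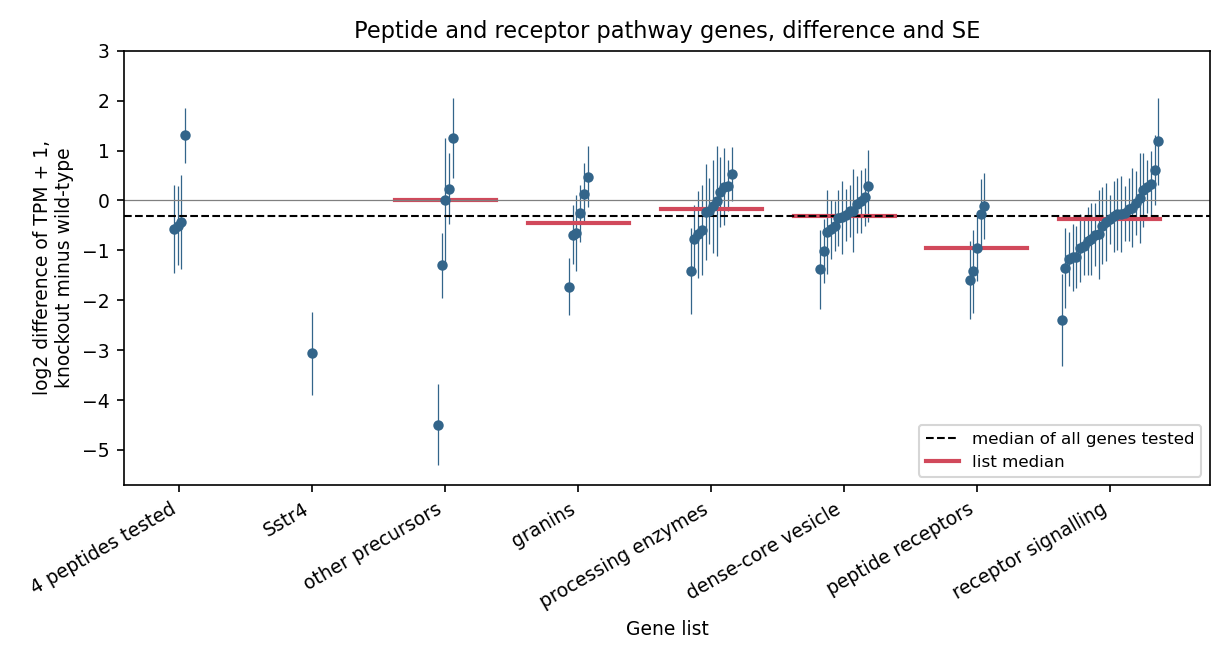
Log2 difference of TPM + 1, knockout minus wild-type (vertical axis), for each tested gene of 8 groups (horizontal axis), with SE as the bar, the list median in red for the 6 lists and the median of all genes tested as a dashed line. Npy (1.30) lies apart from the other 3 peptides (-0.57 to -0.43), and the list medians run from -0.96 to 0.01 with 0 genes called.

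Receptors through which these peptides could act were read out in the same libraries. Of 19 listed receptors 5 were tested, 5 lower and 0 higher, with 0 called and a median of -0.96; 67.4% of all genes tested were lower too. Vipr2, which binds PACAP and VIP, was the most abundant, at 222, 238, 129, 82.2 and 85.2 TPM for the wild-type replicates 1 to 5 in turn, and 155, 137, 34.7, 104 and 21.2 TPM for the knockout replicates 1 to 5. Adcyap1r1, the PACAP-preferring receptor, was at 7.09 to 18.9 TPM among wild-type libraries and 0.127 to 13.1 TPM among knockout libraries (-1.60, SE 0.78). Npy1r, the Y1 receptor of neuropeptide Y, was at 4.69 to 26.1 TPM among wild-type libraries and 0.27 to 23.0 TPM among knockout libraries (-1.42, SE 0.83). The list also holds Oprl1, whose ligand nociceptin is not among the 6 peptides, at 14.6 to 76.9 and 19.6 to 35.0 TPM. The genotypes overlapped for all 4.

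The genes downstream of somatostatin receptors were mostly present. Of 28 listed genes 27 were tested, 21 lower and 6 higher, with 0 called and a median of -0.37, which became 0.00 after median centring, where the median of all genes was 0.07. Gnao1, the G protein alpha subunit most abundant in neurons, was at 329 to 3262 TPM among wild-type libraries and 328 to 1872 TPM among knockout libraries, and the gamma subunit gene Gng3 at 919 to 2903 and 822 to 1398 TPM. Kcnj3, an inward-rectifier potassium channel subunit opened by Gi/o-coupled receptors, was at 6.71, 20.1, 132, 10.8 and 7.86 TPM for the wild-type replicates 1 to 5 in turn, and 1.99, 7.30, 0.473, 0.163 and 12.3 TPM for the knockout replicates 1 to 5 (log2 difference -2.39, SE 0.93). Only knockout 2 and 5 reached the range of wild-type. Gnaz was at 226 to 828 TPM among wild-type libraries and 97.1 to 259 TPM among knockout libraries (-1.17, SE 0.54).

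The genes whose levels ranked most like those of Npy over the 10 libraries were Rps15a-ps6, Smarcd2 and Txn2, each with a Spearman rho of 0.915 (Pearson r of 0.848, 0.916 and 0.871). Without wild-type 3 and 4, the libraries farthest from the median of Npy, Pearson r was 0.925, 0.823 and 0.781. For Sstr4, whose 4 values at 0 are tied, they were Mrpl47 (rho 0.932, r 0.839), Dcaf8 (0.919, 0.765) and Setdb2 (0.919, 0.697). Without wild-type 2 and 3, Pearson r was 0.987, 0.947 and 0.874. These are the highest of 11743 genes over libraries that share a genotype and differ together in overall profile, so no p is given, and Sst and Sstr2, at 0 in 7 libraries, were not ranked in this way.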

How the data were processed

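The authors deposited log10(TPM + 1) values for 23746 gene entries in 10 libraries (single-end RNA-seq of amplified cDNA, per the labels' protocols). The base and offset were read from the values: each library sums to 1000000 TPM after back-transformation. The submitters' processing notes name TopHat2 2.0.10, Cufflinks and mm10. Annotation, counting, strand and filters: not given in the sources used here. Amplification from about 1000 cells adds variation between libraries.

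Entries named by a number (26, at most 0.198% of a library's TPM) were left out, and 240 repeated symbols were summed, leaving 23258. Genes with at least 1 TPM in 5 libraries (11744) were fitted on log2(TPM + 1) with limma 3.58.1 in R 4.3.3 (genotype only, trended variance, Benjamini-Hochberg threshold 0.05), after a check of the fit on simulated data. Fold changes on this scale understate low genes. Coordinates are from GENCODE M21 (GRCm38) and sequences from RefSeq (GRCm38.p6). The members, lists and alternatives were chosen with earlier results of these data known. Genes named by rule were the 10 members, Satb1 and the 3 genes most alike in rank to a member. Of each list other than the marker lists, the 2 most abundant and the 2 of smallest p were also named. Genes of the marker lists, Gal and Sstr5 were named outside this rule, with their values known. Replicate numbers only name samples. P-values measure the spread between these libraries, 1 per sample. Likeness was not computed for members at 0 in 7 libraries.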

Additional observations from a re-analysis of the deposited data

Results flagged for a closer look

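Within a genotype, 5 values of the 10 genes stood far from the other 4 libraries of their group (a gap above 0.71 of the group's range on the log2(TPM + 1) scale). A single group of 5 normally distributed values passes this limit by chance about 1 time in 20, and 19 groups with any value above 0 were checked. That rate does not hold for a group with 4 libraries at 0, which passes by construction. Tac1 was at 111 TPM in wild-type 4, against 25.1 to 34.1 TPM in the other wild-type libraries. The other 4 are of that kind, single libraries above 0 in a group otherwise listed at 0, so their number says nothing about an excess. They are Sst at 1.001 TPM in wild-type 1, Sstr2 at 0.473 TPM in knockout 4, Sstr3 at 0.209 TPM in knockout 2 and Sstr4 at 0.827 TPM in knockout 4.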

How the results depend on the processing

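The count of genes called over the transcriptome was 0 as reported, with 389 at an unadjusted p under 0.05. It was 1 when at least 5 TPM in 5 libraries was required, 3 with library weights and 1 with a constant prior variance; the cause was not tested. Leaving out each library in turn gave 0 to 1, and the other settings gave 0. No member was called in any of the alternatives. Npy stayed higher in 22 of 22 alternatives (1.05 to 1.68) and Adcyap1 lower in 22 of 22 (-1.18 to -0.07). The filters, the replicate block, the constant prior variance and the handling of repeated symbols left both differences unchanged, at 1.30 and -0.57. Npy was chosen from this comparison, and nothing is read from either count. Sstr4 was lower in 21 of 21 (-5.62 to -1.12) and was not tested with the filter at 5 TPM. Every knockout value of Sstr4 lay under every wild-type value. Its sign therefore could not turn with the pseudocount or with libraries left out, and nothing is read from that count. The Nmb difference of -0.43 turned to 0.086 with 10 TPM added, to 0.40 with library weights and to 1.09 on leaving out wild-type 5, knockout 4 and knockout 5. With single libraries left out it ran from -1.14 to 0.071. The Tac1 difference of -0.50 turned to 0.12 with library weights and to 0.034 without those 3 libraries. The cause was not tested. The replicate block gave 0 calls (830 at an unadjusted p under 0.05), and the adjusted p of Npy and of Sstr4 was 0.692 each. The labels do not pair the libraries: deviations of same-numbered libraries correlated at 0.22, 0.07, 0.13, -0.03 and 0.36, and not every library matched its own number best. The median SE of a log2 difference, 0.775, limits what could be detected in single genes.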
